A study of Mus musculus with 10 samples.

Results

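Interferon-stimulated genes are the genes that cells switch on after an interferon has bound its receptor, and 34 of them were followed here in mouse liver. They were taken by symbol from a list of names, and the list was drawn up with earlier results of these data known. All 34 were among the 24062 genes of the normalised expression table, and all 34 passed the filter for testing (2 or more libraries at a value of 1 or more), as did 12648 genes in total. Messenger RNA had been sequenced from 8 liver libraries, each a pool of 4 mice, and from 2 liver tumours. The tumours, labelled hepatocellular carcinoma, each came from 1 mouse given Western diet and carbon tetrachloride (CCl4) for 24 weeks. The pools covered Western diet with CCl4, normal diet with CCl4, Western diet with oil and normal diet with oil, with 1 pool of each at 24 weeks and 1 at 12 weeks. CCl4 is a toxin that injures the hepatocytes around the central veins, and oil was its vehicle. The labels give no strain, sex, age, diet composition or CCl4 dose, and no condition had a second pool. Adjusted p-values therefore weigh a difference against the spread between the 24-week and 12-week pools, once any shift common to all combinations at 24 weeks has been removed, and not against the spread between animals.

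Type I interferons act through the receptor pair Ifnar1 and Ifnar2 and through the kinases Jak1 and Tyk2. The kinases phosphorylate transcription factors, Stat2 among them, which join Irf9 and bind a DNA element called the interferon-stimulated response element. Interferon gamma acts through another receptor pair and a different DNA element, the gamma-activated site. The induced proteins include sensors of viral RNA, factors such as Irf7 that prolong the response, antiviral effectors such as the Ifit, Oas and Mx proteins, and brakes such as Usp18. In liver, hepatocytes, resident macrophages and endothelial cells can all respond to interferon.

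The members were set out first by what their start sites carry. RefSeq promoter windows (GRCm38.p6, 250 bases before to 50 bases after a gene's start) were matched by symbol for 26 of the 34 members. The letters GAAANNGAAA, the core of a response element, or TTTCNNTTTC for the other strand, stood in the windows of 17 of the 26, or 65.4%. Of all 27025 genes with a window, 3.99% held them. The letters TTCNNNGAA, a gamma-activated site, read the same on both strands and stood in the windows of 8 of the 26, or 30.8%, against 9.55% of all genes. A match is a stretch of letters and not a measured binding site, and overlapping matches were each counted. The next sequences are shown because they belong to members whose values are followed below, and capitals mark every match to either motif. Isg15 (chr4:156200769-156201068, minus strand) held 3 overlapping response-element matches, Ifit1 (chr19:34640639-34640938, plus strand) held 2, and Oas3 (chr5:120777610-120777909, minus strand) held 1. Irf1 (chr11:53769764-53770063, plus strand) held only a gamma-activated site match. Oasl2 (chr5:114896684-114896983, plus strand) held neither.
Isg15: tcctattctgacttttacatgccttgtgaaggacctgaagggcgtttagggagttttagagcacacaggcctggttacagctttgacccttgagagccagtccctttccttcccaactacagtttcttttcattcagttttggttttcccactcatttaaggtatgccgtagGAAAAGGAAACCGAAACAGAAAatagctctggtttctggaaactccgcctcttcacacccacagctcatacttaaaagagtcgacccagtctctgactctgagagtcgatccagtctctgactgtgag
Ifit1: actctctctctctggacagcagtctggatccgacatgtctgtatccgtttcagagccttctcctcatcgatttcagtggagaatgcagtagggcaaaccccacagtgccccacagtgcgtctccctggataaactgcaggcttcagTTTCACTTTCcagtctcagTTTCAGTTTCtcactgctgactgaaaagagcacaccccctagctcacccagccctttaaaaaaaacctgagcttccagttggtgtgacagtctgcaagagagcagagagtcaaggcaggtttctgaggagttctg
Oas3: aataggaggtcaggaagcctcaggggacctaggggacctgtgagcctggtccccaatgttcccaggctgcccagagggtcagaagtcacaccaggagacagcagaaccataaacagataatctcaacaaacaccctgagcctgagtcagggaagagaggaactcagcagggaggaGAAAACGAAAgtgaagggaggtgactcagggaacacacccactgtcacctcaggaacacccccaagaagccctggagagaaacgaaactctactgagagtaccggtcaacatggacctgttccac
Irf1: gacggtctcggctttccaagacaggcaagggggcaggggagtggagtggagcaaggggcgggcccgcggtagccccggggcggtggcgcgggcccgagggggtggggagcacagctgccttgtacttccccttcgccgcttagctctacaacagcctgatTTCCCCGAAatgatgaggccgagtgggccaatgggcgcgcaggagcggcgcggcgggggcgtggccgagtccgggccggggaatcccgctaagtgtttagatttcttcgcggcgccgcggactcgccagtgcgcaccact
Oasl2: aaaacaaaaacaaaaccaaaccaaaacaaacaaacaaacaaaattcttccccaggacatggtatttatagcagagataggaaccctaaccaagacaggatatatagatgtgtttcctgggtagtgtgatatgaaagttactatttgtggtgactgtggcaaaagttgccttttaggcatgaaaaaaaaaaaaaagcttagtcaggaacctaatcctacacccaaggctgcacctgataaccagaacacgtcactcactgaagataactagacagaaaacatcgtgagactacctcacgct

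Shorter stretches, each match with 15 bases on either side, show how near the start the matches lay in other members. Ifit3 (chr19:34583358-34583431, plus strand) had matches beginning 156 and 122 bases before the start. Gbp2 (chr3:142620589-142620628, plus strand) had 1 at 59 bases and Trim30a (chr7:104465205-104465244, minus strand) had 1 at 36 bases. Rsad2 (chr12:26456548-26456587, minus strand) had 1 at 120 bases. Oas1a (chr5:120907515-120907638, minus strand) had overlapping response-element matches at 20 and 14 bases and a gamma-activated site match at 98 bases. In Bst2 (chr8:71537572-71537623, minus strand) the 2 motifs overlapped, so the capitals run on without a break.
Ifit3: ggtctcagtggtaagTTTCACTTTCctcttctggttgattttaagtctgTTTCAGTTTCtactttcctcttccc
Gbp2: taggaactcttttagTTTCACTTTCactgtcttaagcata
Trim30a: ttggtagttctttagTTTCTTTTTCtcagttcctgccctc
Rsad2: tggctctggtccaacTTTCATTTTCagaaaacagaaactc
Oas1a: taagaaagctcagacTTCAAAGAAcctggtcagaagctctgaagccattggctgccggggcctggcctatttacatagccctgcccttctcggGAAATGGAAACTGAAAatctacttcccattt
Bst2: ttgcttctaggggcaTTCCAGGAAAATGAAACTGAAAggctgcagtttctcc

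The members also sit in clusters. The GENCODE annotation of GRCm38 places Oas2, Oas3 and Oas1a in 1 stretch of chromosome 5 (from 120730333 to 120907521) and Oasl2 and Oasl1 at lower coordinates of the same chromosome (from 114896936 to 114937915). Ifit2, Ifit3 and Ifit1 lie together on chromosome 19 (from 34550694 to 34650009), and Gbp7, Gbp3 and Gbp2 on chromosome 3 (from 142530342 to 142638008). Reads shared between near-identical relatives, such as Ifit3 and Ifit3b or the Oas1 and Gbp copies, could have been split or lost in counting, so single members of these families are uncertain. Igtp shares 8.0% of its exon bases with Irgm2 on the same strand, and Ifi35 shares 16.8% with an antisense gene. Whether counting used strand is not given in the sources used here.

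Levels per kilobase of exon, averaged over the 8 pools, spanned from 231 for Bst2, a membrane protein that tethers virus particles, to 0.426 for Mx1. Isg15 had 13.2 per kilobase on this mean, Irf7 had 12.5, Oasl1 had 5.47, Oas1a had 2.78, Oas2 had 0.786 and Oas3 had 0.567, so the Oas family was itself spread widely. Ifi27l2b had a mean of 24.5 per kilobase, but its pools ranged from 1.66 to 49.6, with the normal diet oil pools at 4.48 and 1.66 for 24 and 12 weeks. All values below are normalised read counts per gene, which are compared between libraries only.

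Read totals ran from 23206229 to 30137802 per library. Summed hepatocyte markers (5 genes) stood between 66800 and 232700 normalised reads across the libraries, so the label liver matched. Their sum was 71350 and 83600 in the normal diet CCl4 pools of 24 and 12 weeks, against 127800 and 137800 in the normal diet oil pools. It was 66800 and 101700 in the Western diet CCl4 pools, against 103000 and 122300 in the Western diet oil pools. Hepatocyte marker sums were thus lower with CCl4 in each pair, while stellate cell markers (4 genes) summed to 406 and 261 in the normal diet CCl4 pools, against 173 and 161 with oil, and to 414 and 327 in the Western diet CCl4 pools, against 257 and 224. Macrophage markers, 7 genes of 8 listed, summed to 455 and 472 in Western diet CCl4 pools of 24 and 12 weeks and to 420 and 235 in normal diet CCl4 pools. They summed to 301 and 244 in Western diet oil pools and to 161 and 104 in normal diet oil pools. The part of these shifts in the members' values was not tested. In bulk tissue, fewer cells of a type and less RNA per cell cannot be told apart. Of the 5 markers of plasmacytoid dendritic cells, which make much type I interferon in infection, Siglech, Ccr9 and Cd300c stayed below 1 in all 10 libraries.

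**Figure D1:**
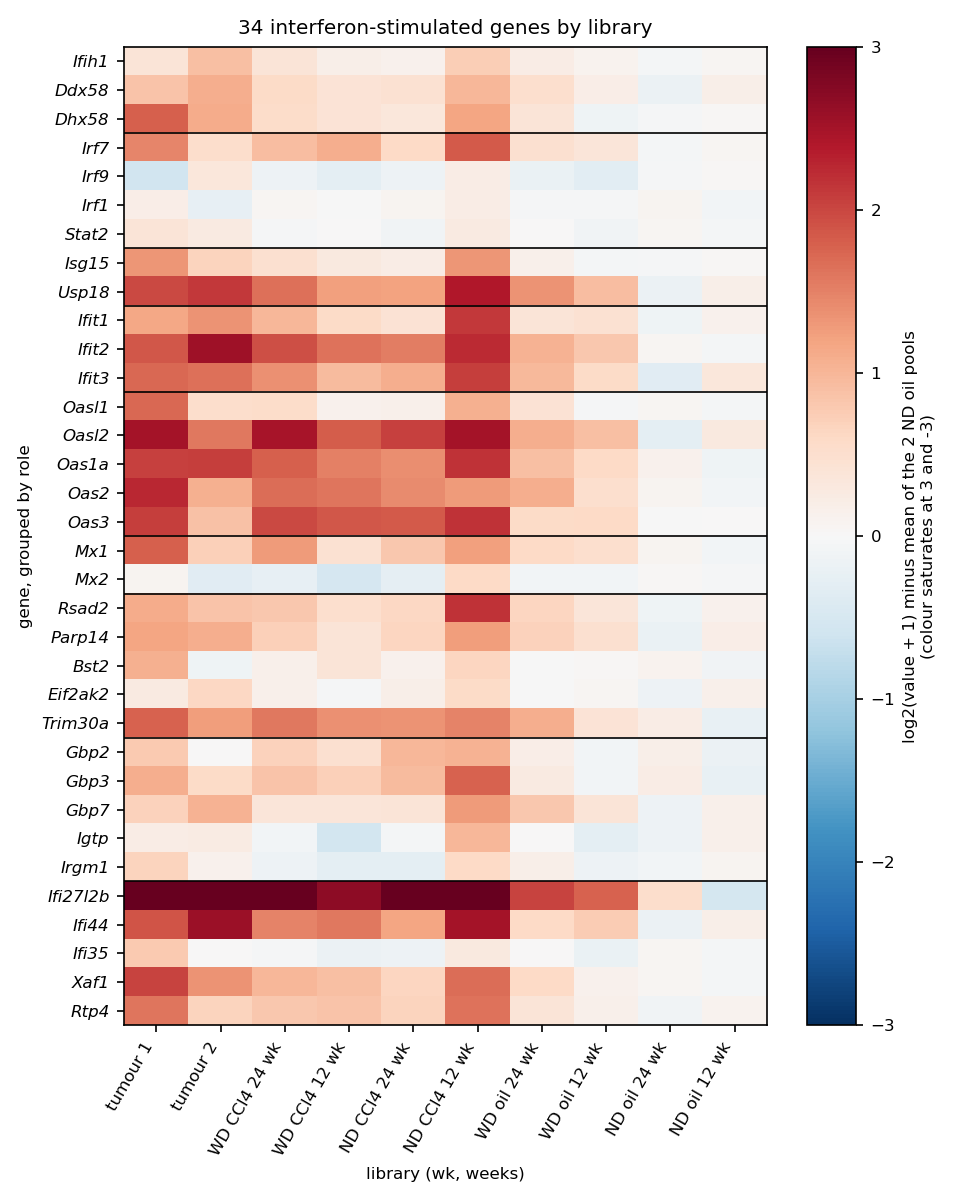
Colour shows log2(value + 1) of each member in each library minus the mean of both normal diet oil pools; columns run from tumours through CCl4 pools to oil pools, and lines part the roles. The column of the 12-week CCl4 pool on normal diet is the darkest of the liver columns for most genes, and Irf9, Irf1, Stat2 and Ifi35 stay pale in the liver pools.

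The first comparison, CCl4 against oil in mice on normal diet, shows the toxin without the diet. Of the 34 members, 21 rose and 0 fell, while 15.3% of all tested genes rose and 10.6% fell. The members' median log2 fold change was 1.01, beside 0.00 over all tested genes, and all 34 estimates were positive. Both CCl4 pools lay above both oil pools for 27 members, which was so for 33.6% of tested genes. In the 24-week pair 10 members were at least 2-fold higher with CCl4 on the log2(value + 1) scale, with a median log2 difference of 0.65. In the 12-week pair 23 were, with a median of 1.30. Among tested genes 9.91% were at least 2-fold higher in the 24-week pair and 6.56% in the 12-week pair.

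Ifi27l2b, a small membrane protein of the Ifi27 family, changed most. It had 54.3 and 45.7 normalised reads in the CCl4 pools of 24 and 12 weeks, against 4.89 and 1.82 in the oil pools. The values were 11.1-fold and 25.1-fold higher with CCl4 at the 2 durations, with no overlap. Its log2 fold change was 3.64 ± 0.23 (standard error of the fit, 2 pools against 2, limma adjusted p = 6.30e-05).

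Oas synthetases make oligoadenylates that activate the ribonuclease RNase L, and 4 of the 5 members of the Oas family rose. Oas3 had 5.91 and 7.80 reads in the CCl4 pools of 24 and 12 weeks, against 0.915 and 0.976 in the oil pools (log2 fold change 2.0 ± 0.19, limma adjusted p = 0.000404). Oasl2, an Oas-like protein of mice, had 13.0 and 18.1 reads with CCl4, against 1.74 and 3.15 with oil (2.28 ± 0.29, limma adjusted p = 0.00115). In both genes the CCl4 pools stood well clear of the oil pools at either duration. Oas1a had 6.0 and 10.9 reads, against 1.92 and 1.42 (1.78 ± 0.27), and Oas2 had 4.72 and 4.14, against 1.24 and 1.02 (1.35 ± 0.20). Oas2 was the only one of the 5 whose 24-week CCl4 pool was not below its 12-week pool. Oasl1, which in mice restrains translation of Irf7, had 12.5 and 24.2 reads with CCl4, against 11.6 and 10.7 with oil, and did not pass (0.61 ± 0.30, limma adjusted p = 0.162).

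Among the Ifit genes, whose proteins bind viral RNA ends, all 3 rose. Ifit2 had 9.97 and 16.7 reads in the CCl4 pools of 24 and 12 weeks, against 2.93 and 2.62 in the oil pools (1.89 ± 0.24, limma adjusted p = 0.00131). Ifit3 had 12.2 and 25.3, against 3.93 and 6.88 (1.58 ± 0.33, limma adjusted p = 0.0108). Ifit1 differed from these in its shape over time. It had 7.60 reads in the 24-week CCl4 pool and 26.5 in the 12-week CCl4 pool, against 4.76 and 5.95 with oil (1.28 ± 0.40, limma adjusted p = 0.0453). Most of its rise therefore sat in 1 pool.

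The factors that carry the signal moved unequally. Irf7, the master factor of the late type I response, had 41.1 and 99 reads in the CCl4 pools of 24 and 12 weeks, against 25.7 and 28.1 with oil (1.22 ± 0.27, limma adjusted p = 0.0135). Its partners in the pathway did not pass. Irf9 had 31.8 and 41.0 reads with CCl4, against 34.6 and 36.1 with oil (0.03 ± 0.15, limma adjusted p = 0.890). Stat2 had 47.6 and 61.9, against 52.8 and 49.2 (0.09 ± 0.14), and Irf1, a factor induced by interferon gamma, had 32.0 and 35.7, against 32.3 and 28.6 (0.15 ± 0.13). The 95% intervals of these 3 changes ended at 0.37, 0.41 and 0.43 on the log2 scale, below the estimate for Irf7.

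Usp18 removes the ubiquitin-like protein Isg15 from its targets and damps receptor signalling. It had 12.6 and 30.0 reads in the CCl4 pools of 24 and 12 weeks, against 4.21 and 5.68 in the oil pools (1.80 ± 0.35, limma adjusted p = 0.00741). Isg15 itself had 8.94 and 20.2, against 7.32 and 7.68, and did not pass (0.77 ± 0.29, limma adjusted p = 0.0828). Only the 12-week CCl4 pool of Isg15 stood clearly apart from the oil pools. Of the sensors of viral RNA, Ddx58 (RIG-I) rose by 0.73 ± 0.20 (limma adjusted p = 0.0303), while Dhx58 (LGP2) at 0.76 ± 0.27 and Ifih1 (MDA5) at 0.44 ± 0.19 did not pass.

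Other antiviral effectors included Rsad2 (viperin), which makes a chain-terminating nucleotide. It had 11.8 and 36.0 reads in the CCl4 pools of 24 and 12 weeks, against 6.54 and 8.03 with oil (1.40 ± 0.38, limma adjusted p = 0.0292). Trim30a, a TRIM-family protein of mice, had 13.7 and 15.3, against 5.81 and 3.99 (1.41 ± 0.21, limma adjusted p = 0.00219), so that its 2 CCl4 pools were much alike where those of Rsad2 were not. Parp14, an ADP-ribosyltransferase, rose by 0.95 ± 0.21. Bst2 (0.39 ± 0.16) and Eif2ak2, the RNA-activated kinase PKR (0.37 ± 0.17), did not pass, with limma adjusted p-values of 0.113 and 0.129. Mx1, a dynamin-like antiviral GTPase, had 1.84 and 2.82 reads with CCl4, against 0.732 and 0.532 with oil (1.02 ± 0.29, limma adjusted p = 0.0330). Mx2, annotated as a polymorphic pseudogene, had 2.61 and 5.61, against 3.43 and 3.24 (0.17 ± 0.27).

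Guanylate-binding proteins attack the vacuoles of intracellular microbes, and all 3 members of that family rose. Gbp3 had 11.6 and 21.6 reads in the CCl4 pools of 24 and 12 weeks, against 6.68 and 4.66 with oil (1.36 ± 0.28, limma adjusted p = 0.0105). Gbp2 had 11.9 and 12.4, against 6.36 and 4.79 (1.01 ± 0.17, limma adjusted p = 0.00401), and Gbp7 rose by 0.83 ± 0.26 (limma adjusted p = 0.0484). The immunity-related GTPases Igtp (0.47 ± 0.31) and Irgm1 (0.15 ± 0.24), which are strongly driven by interferon gamma, did not pass. Igtp had 27.4 reads in the 24-week CCl4 pool and 58.2 in the 12-week one, against 25.8 and 31.6 with oil. Ifi44, whose product is a cytoplasmic interferon-induced protein, had 7.04 and 18.9, against 2.10 and 2.97 (1.85 ± 0.28, limma adjusted p = 0.00280). Xaf1, a pro-apoptotic antagonist of XIAP, rose by 1.16 ± 0.31 and Rtp4, a chaperone of receptor transport, by 1.15 ± 0.25, while Ifi35 stayed at 0.06 ± 0.17 and did not pass.

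**Figure D2:**
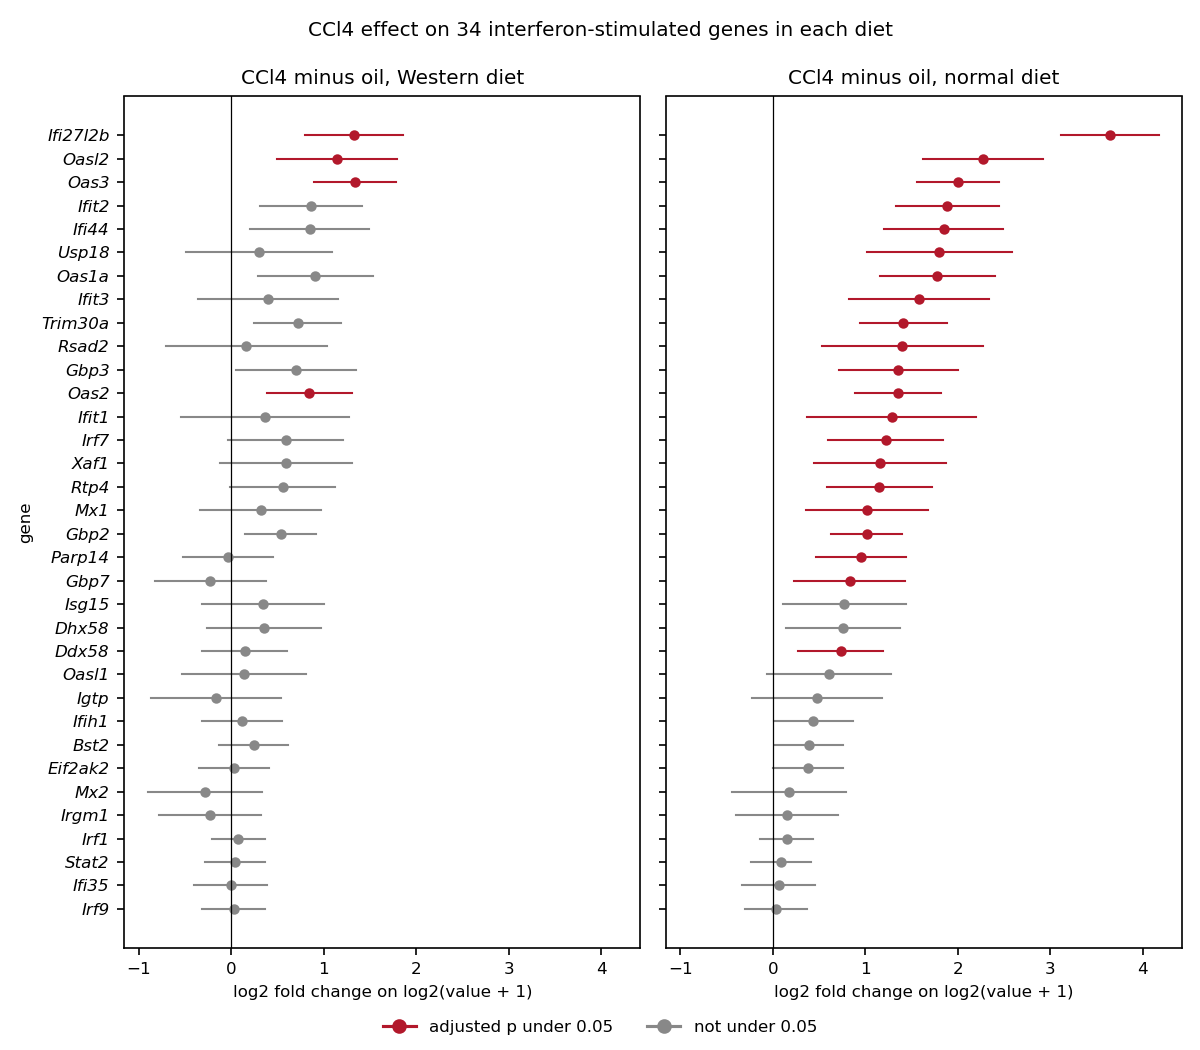
Points are log2 fold changes of the 34 members on log2(value + 1), CCl4 minus oil, with 95% intervals of the limma fit, on Western diet in the left panel and normal diet in the right panel; red marks a limma adjusted p under 0.05. There are 4 red points on Western diet and 21 on normal diet, and Ifi27l2b reaches 3.64 on normal diet.

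One pool held the highest value of most members. The 12-week CCl4 pool on normal diet had the highest value among the 8 pools for 30 of 34 members, while it was the highest for 10.6% of tested genes. The 4 exceptions were Ifi27l2b, highest in the 24-week CCl4 pool on normal diet, and Oas2, Mx1 and Trim30a, highest in the 24-week CCl4 pool on Western diet. Without that 12-week pool, 11 members rose with CCl4 on normal diet instead of 21: Ifi27l2b, Oasl2, Oas3, Oas2, Oas1a, Ifit2, Ifi44, Trim30a, Gbp2, Usp18 and Irf7. Without the 24-week or the 12-week oil pool on normal diet, 10 and 13 rose. Past the threshold whichever library was left out were 9 members, namely Gbp2, Ifi27l2b, Ifi44, Ifit2, Oas1a, Oas2, Oas3, Oasl2 and Trim30a. Leaving out either oil pool lowered the count as well, so the count alone cannot show what the 12-week CCl4 pool contributed. The estimates moved in different ways. Ifit2 stood at 2.34 without the 24-week CCl4 pool and 1.43 without the 12-week one, and at 1.97 and 1.80 without the oil pools of 24 and 12 weeks. Oasl2 stood at 2.54 and 2.01 without those CCl4 pools, but moved as far without the oil pools, at 1.91 and 2.64. The macrophage marker sum was 420 in the 24-week CCl4 pool on normal diet and 235 in that 12-week CCl4 pool. In the latter, 0 of 7 macrophage markers had their highest value. Whether cell content had a part in the members' values was not tested.

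Between durations the normal diet CCl4 pools stood apart from the rest. Of the 34 members, 32 were lower at 24 weeks than at 12 weeks in these pools, with a median difference of -0.72 on the log2 scale, while 46.6% of tested genes were higher at 24 weeks. Ifit1 and Rsad2 stood at 0.286 and 0.326 of their 12-week values, Ifi44 at 0.372, Irf7 at 0.415, Usp18 at 0.421 and Isg15 at 0.443. Oas2 and Ifi27l2b were the 2 that were higher at 24 weeks, at 1.14 and 1.19 times the 12-week value. Gbp2 (0.962) and Trim30a (0.898) were close to it. In the other combinations the medians for 24 minus 12 weeks were 0.19 for Western diet with CCl4, 0.24 for Western diet with oil and -0.06 for normal diet with oil. With 1 pool at each point these differences have no replicate check. Over all 8 pools, the limma fit called 0 members between 24 and 12 weeks, as it called 0% of tested genes. At an unadjusted p under 0.05 there were 2 members, Ifi27l2b (0.66 ± 0.17) and Ifi44 (-0.48 ± 0.20), beside 1475 of the 12648 tested genes. Of the members, edgeR called 0 and DESeq2 called 1, Ifi27l2b.

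**Figure D3:**
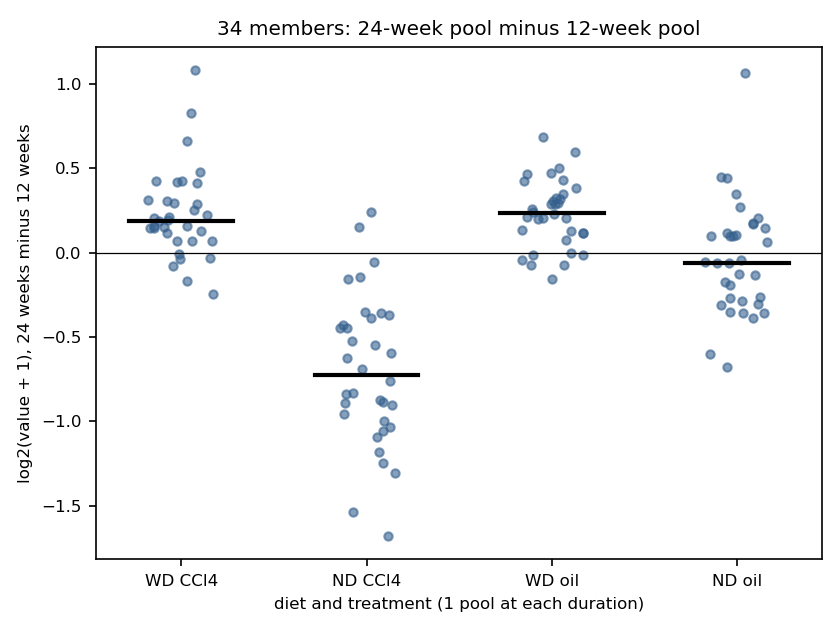
Each point is 1 of the 34 members, as log2(value + 1) in the 24-week pool minus the 12-week pool of the same diet and treatment, and bars are medians. The normal diet CCl4 points lie mostly below 0 with a median of -0.72, and the other medians lie between -0.06 and 0.24.

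CCl4 on a Western diet was set against oil on a Western diet. Here 4 members rose and 0 fell, while 4.29% of tested genes rose and 2.52% fell: Ifi27l2b, Oas3, Oasl2 and Oas2. The median log2 fold change of the 34 members was 0.33, beside -0.02 over all tested genes, and 28 of 34 estimates were positive. For 18 members both CCl4 pools lay above both oil pools, against 26.1% of tested genes. With 1 library left out in turn the count ran from 0 to 8, and none of the 4 genes passed every time. It was 0 without either Western diet oil pool, 1 without the 24-week CCl4 pool of that diet and 8 without the 24-week CCl4 pool on normal diet.

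Oas3 had 6.64 and 6.03 reads in the Western diet CCl4 pools of 24 and 12 weeks, against 1.89 and 1.92 in the oil pools. All 4 values repeated closely within a treatment, and the log2 fold change was 1.33 ± 0.19 (limma adjusted p = 0.00941). Ifi27l2b had 54.2 and 25.1, against 15.5 and 12.8 (1.33 ± 0.23, limma adjusted p = 0.0171). Oasl2 had 17.8 and 10.9, against 6.23 and 5.30 (1.15 ± 0.29, limma adjusted p = 0.0485), and Oas2 had 5.80 and 5.49, against 3.56 and 2.01 (0.84 ± 0.20, limma adjusted p = 0.0449). The products of all but Ifi27l2b belong to the oligoadenylate synthetase family.

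Several members that rose on normal diet had estimates near those calls on Western diet without passing. Oas1a stood at 0.91 ± 0.27 (limma adjusted p = 0.0833), Ifit2 at 0.86 ± 0.24 (0.0702), Ifi44 at 0.85 ± 0.28 (0.109) and Trim30a at 0.72 ± 0.21 (0.0727). Others were near 0. Parp14 stood at -0.04 ± 0.21, Rsad2 at 0.16 ± 0.38 and Gbp7 at -0.23 ± 0.26. Irf7 had 52.1 and 58.7 reads in the Western diet CCl4 pools of 24 and 12 weeks, against 38.0 and 35.0 in the oil pools (0.59 ± 0.27, limma adjusted p = 0.229). Usp18 had 17.6 and 12.9, against 14.1 and 10.3 (0.30 ± 0.35, limma adjusted p = 0.638), so that its Western diet oil pools already stood above both normal diet oil pools. Isg15 had 10.9 and 9.41, against 8.42 and 7.18 (0.34 ± 0.29, limma adjusted p = 0.515).

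**Figure D4:**
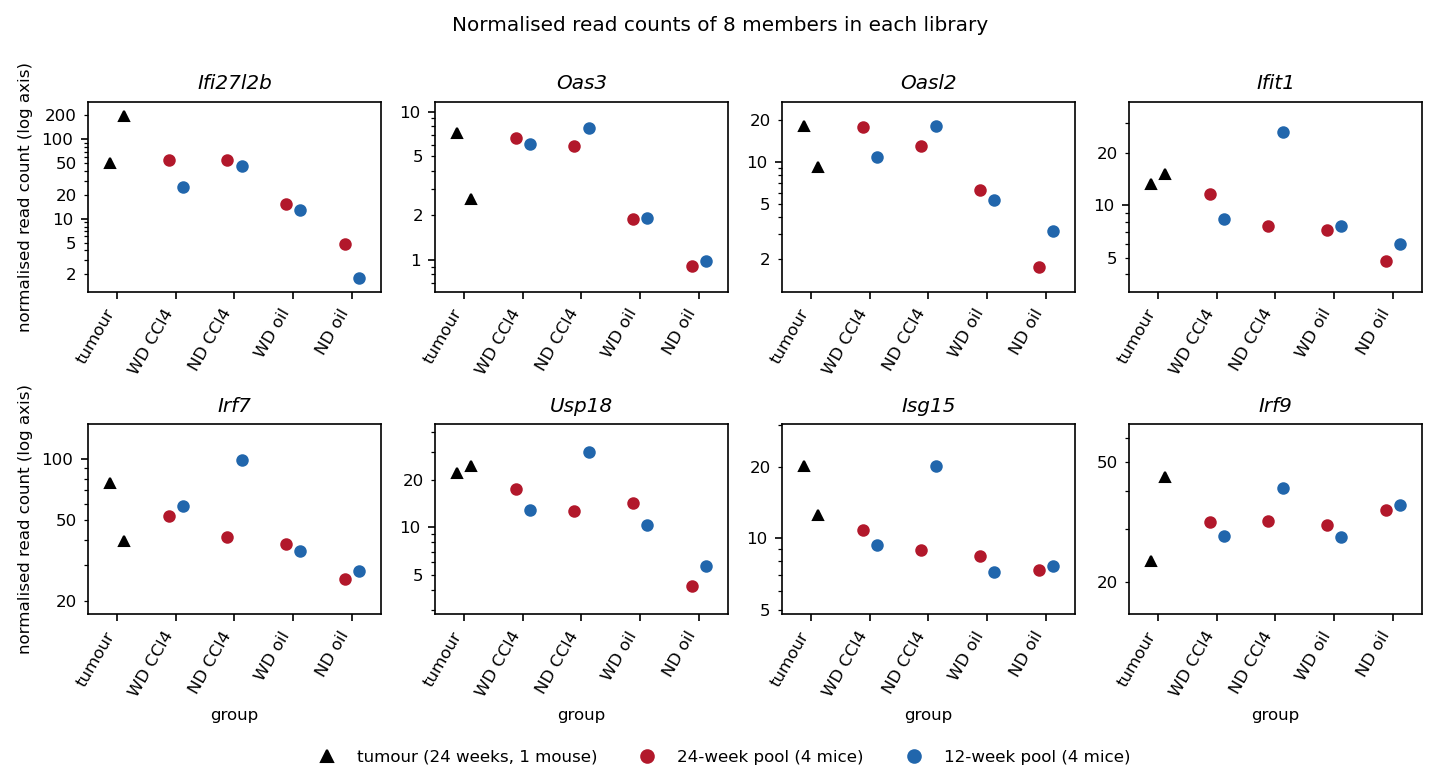
Normalised read counts of 8 members on log axes, with triangles for tumours (1 mouse each), red for 24-week pools and blue for 12-week pools. Oas3 separates all CCl4 pools from all oil pools, Ifit1, Irf7, Usp18 and Isg15 have their highest liver value in the 12-week normal diet CCl4 pool, and Irf9 has no such separation.

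The test of the difference between diets was the interaction of diet and CCl4. It called 0 members, and 0.103% of tested genes in either direction. All 34 estimates were negative, meaning a lower CCl4 effect on Western diet, while 46.5% of tested genes had a positive one. An unadjusted p under 0.05 was reached by 11 members, beside 1131 of the 12648 tested genes. The largest estimate was that of Ifi27l2b at -2.31 ± 0.33 (limma adjusted p = 0.0534). edgeR called 0 members and DESeq2 called 1, Ifi27l2b (-2.60, adjusted p = 1.11e-07). The sign was no longer shared by all 34 without the 12-week normal diet CCl4 pool. In that fit 12 of 34 estimates were positive and the median was -0.15, against -0.61 with the pool. In Ifi27l2b the Western diet oil pools were already 1.89 ± 0.23 above the normal diet oil pools.

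Western diet with oil was set against normal diet with oil. Ifi27l2b alone rose, with 15.5 and 12.8 reads in the Western diet pools of 24 and 12 weeks, against 4.89 and 1.82 in the normal diet pools (limma adjusted p = 0.00883). Among tested genes 1.45% rose and 0.546% fell, so 1 member of 34 is close to that share. The median over members was 0.36, beside 0.02 over all tested genes, and 28 estimates were positive, against 53.2% of tested genes. Usp18 (1.15 ± 0.35, limma adjusted p = 0.145), Oasl2 (1.0 ± 0.29, 0.124) and Oas2 (0.80 ± 0.20, 0.0967) did not pass. With 1 library left out in turn the count ran from 0 to 3. It was 0 without the 12-week normal diet oil pool or either Western diet oil pool, and DESeq2 called 6 members.

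Western diet with CCl4 was set against normal diet with CCl4. The limma fit called 0 members, with 0.0474% of tested genes called in either direction, and edgeR and DESeq2 called 0 as well. An unadjusted limma p under 0.05 was reached by 2 members, Igtp (-0.79 ± 0.31) and Gbp2 (-0.42 ± 0.17), beside 889 of the 12648 tested genes. The 2 durations went opposite ways. At 24 weeks 26 of 34 members were higher on Western diet, with a median difference of 0.17, and at 12 weeks 33 of 34 were lower, with a median of -0.76. Among tested genes 50.7% were higher on Western diet at 24 weeks and 49.8% at 12 weeks. Irf7 had 52.1 reads in the Western diet CCl4 pool at 24 weeks, against 41.1 on normal diet, and 58.7 at 12 weeks, against 99.

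Both exposures together, Western diet with CCl4, were set against normal diet with oil. Of the members 13 rose and 0 fell, while 15.7% of tested genes rose and 10.2% fell. They were Ifi27l2b (3.22 ± 0.23), Oasl2 (2.15 ± 0.29), Oas3 (1.91 ± 0.19), Ifit2 (1.78 ± 0.24), Oas1a (1.65 ± 0.27), Oas2 (1.64 ± 0.20), Ifi44 (1.53 ± 0.28), Trim30a (1.47 ± 0.21), Usp18 (1.45 ± 0.35), Ifit3 (1.17 ± 0.33), Irf7 (1.01 ± 0.27), Rtp4 (0.83 ± 0.25) and Gbp2 (0.59 ± 0.17). This comparison holds no value from the 12-week normal diet CCl4 pool other than through the estimate of the spread. It shares the normal diet oil pools with the comparison of CCl4 on normal diet, so the 2 are not independent. Without the 24-week normal diet oil pool or the 24-week Western diet CCl4 pool, 8 members rose. Averaged over both diets, CCl4 raised 18 members and lowered 0, against 19.0% and 14.2% of tested genes, and 11 rose without the 12-week Western diet oil pool.

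Across all 8 pools, every one of the 4 CCl4 pools lay above every one of the 4 oil pools for 15 members, against 13.6% of tested genes. These were Irf7, Isg15, Ifit2, Oasl2, Oas1a, Oas2, Oas3, Bst2, Trim30a, Gbp2, Gbp3, Ifi27l2b, Ifi44, Xaf1 and Rtp4. The member whose values followed those of Irf7 most closely over the 10 libraries was Rtp4, with a Pearson correlation of 0.97 of the log2 values, and then Rsad2 and Gbp3 (0.89 each). Irf9 was the least like it (-0.15). The 10 points share scaling and exposures, and these correlations are a description.

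The tumours were set against the livers of mice with the same exposures. The limma fit over all 10 libraries called 0 members, with 0.972% of tested genes called in either direction, and edgeR and DESeq2 called 0. At an unadjusted p under 0.05 there were 3, Dhx58 (1.01 ± 0.36), Ifi44 (0.92 ± 0.37) and Parp14 (0.65 ± 0.25). That threshold was reached by 2114 of the 12648 tested genes, a larger share than among the members. The median over members was 0.45, beside -0.003 over all tested genes, and 28 of 34 estimates were positive, against 49.7% of tested genes. Both tumours lay above both liver pools for 18 members, against 20.6% of tested genes. Macrophage markers summed to 377 and 259 in tumours 1 and 2, against 455 and 472 in the pools of 24 and 12 weeks, and the median log2 change of that list was -0.69. Its part in the members' values was not tested.

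The 2 tumours, each from 1 mouse, differed in which members were high. Against the 24-week pool, 31 of 34 members were higher in tumour 1 and 21 in tumour 2, beside 47.7% and 52.3% of tested genes. Bst2 had 386 reads in tumour 1 and 167 in tumour 2, against 202 and 239 in the pools of 24 and 12 weeks. Oasl1 had 39.0 and 16.3, against 16.7 and 12.2, and Dhx58 had 33.9 and 21.0, against 13.7 and 12.4. Tumour 1 was thus the highest of these libraries for all 3 genes. In tumour 2 the order was another. Ifi27l2b had 49.7 reads in tumour 1 and 199 in tumour 2, against 54.2 and 25.1 in the pools. Ifi44 had 11.9 and 19.7, against 8.88 and 9.45. Oas3 had 7.23 and 2.56, against 6.64 and 6.03, and Gbp2 had 10.2 and 5.55, against 9.62 and 8.10, so both were lowest in tumour 2 among these 4 libraries.

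Leaving out 1 tumour leaves a lone tumour assumed to vary like the pools. With tumour 1 alone, 17.9% of tested genes were called in either direction and 4 of 34 members were, Oasl1 (1.38), Dhx58 (1.34), Bst2 (0.88) and Ifi35 (0.87). With tumour 2 alone, 18.9% of tested genes and 3 of 34 members were called, Ifi27l2b (2.06) and Ifi44 (1.26) higher and Oas3 (-1.0) lower. The members' counts were thus below the share over all tested genes in both fits. These genes were named after their values were seen. Irf9 lay below the livers in tumour 1, with 23.3 reads, and above them in tumour 2, with 44.6, against 31.6 and 28.4 in the pools.

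**Figure D5:**
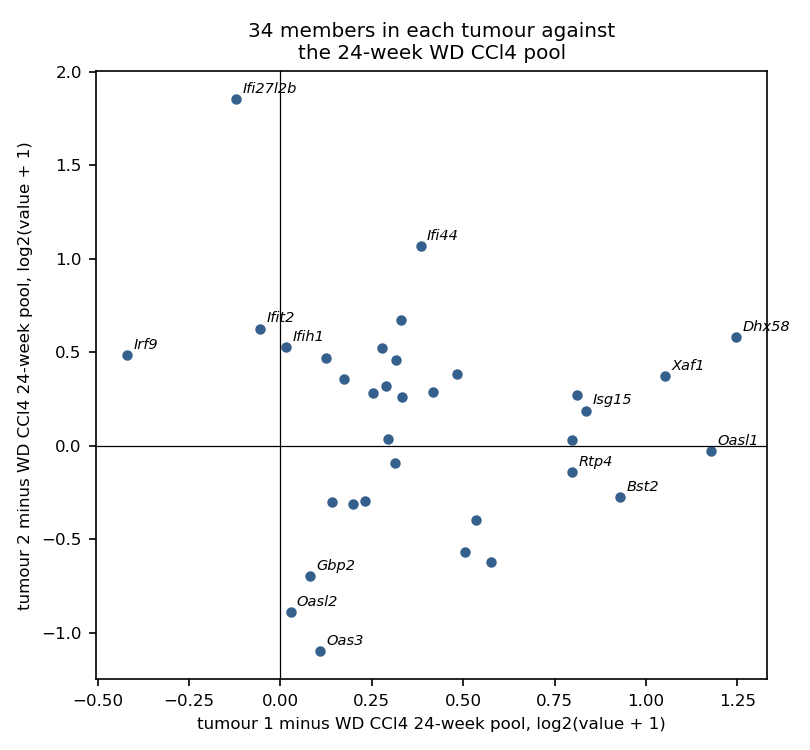
Each point is 1 of the 34 members, with the difference from the 24-week Western diet CCl4 pool in tumour 1 on the horizontal axis and in tumour 2 on the vertical axis, on log2(value + 1). Dhx58 and Oasl1 lie far right, Ifi27l2b lies at the top, and Oas3, Oasl2 and Gbp2 lie low.

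Upstream of the members, the interferon genes were hardly measured. The 5 listed interferon alpha genes Ifna1, Ifna2, Ifna4, Ifna5 and Ifnab, together with Ifne, Ifnl2 and Ifnl3, had a value of 0 in all 10 libraries, where 0 allows up to 3 reads per library. Ifnb1, Ifng and Ifnk had values of at most 0.256 in any library. Their levels could not be compared at this depth. Of the 5 tested genes among 17 listed ligands and receptors, 3 rose and 1 fell with CCl4 on normal diet, against 15.3% and 10.6% of all tested genes. Ifngr2 (0.91 ± 0.12) and Ifngr1 (0.58 ± 0.17), the interferon gamma receptor chains, and Il10rb (0.92 ± 0.18), a chain of the interferon lambda receptor, rose. Ifnar2 fell, with 59.9 and 60.6 reads in the CCl4 pools of 24 and 12 weeks, against 76.6 and 81.9 in the oil pools (-0.39 ± 0.10, limma adjusted p = 0.0267). Without the 12-week normal diet CCl4 pool Ifnar2 stood at -0.36 and was not called, while Ifngr2, Ifngr1 and Il10rb still were.

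In the signalling list, Irf8, a factor of macrophages and dendritic cells, rose by 1.13 ± 0.17 with CCl4 on normal diet, and the phosphatase gene Ptpn6 by 0.49 ± 0.12, where 15.3% of all tested genes rose. Without the 12-week normal diet CCl4 pool Irf8 was still called (1.21, limma adjusted p = 0.0139) and Ptpn6 was not (0.50, limma adjusted p = 0.0841). Irf8 had 18.3 and 12.7 reads in the CCl4 pools of 24 and 12 weeks, against 8.28 and 4.97 in the oil pools. Unlike most members it was higher in the 24-week CCl4 pool than in the 12-week one. On Western diet Irf8 rose by 0.86 ± 0.17 and was the 1 gene called among the 12 tested, where 4.29% of all tested genes rose.

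Nucleic acid sensors outside the member list rose in part, 9 of 19 tested genes on normal diet, against 15.3% of all tested genes, and 6 on Western diet, against 4.29%. The endosomal RNA receptors Tlr8 (1.69 ± 0.23) and Tlr7 (1.58 ± 0.22) changed most on normal diet, then the DNA sensor Ifi204 (1.20 ± 0.17) and Zbp1 (1.20 ± 0.37). Tlr7 had 8.40 and 5.37 reads in the normal diet CCl4 pools of 24 and 12 weeks, against 1.88 and 1.33 with oil. Zbp1, itself an interferon-stimulated gene, had 7.36 and 17.3, against 4.94 and 3.90. The receptor was thus higher in the 24-week pool and Zbp1 in the 12-week pool. Without the 12-week normal diet CCl4 pool 6 of the 19 rose, and Zbp1 did not pass (0.42, limma adjusted p = 0.305).

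Genes known for their response to interferon gamma rose in 8 of 23 tested cases on normal diet, where 15.3% of all tested genes rose. On Western diet limma called 0 of 23 higher and 0 lower, where 4.29% of all tested genes rose and 2.52% fell. At an unadjusted limma p under 0.05, 1 gene was higher and 1 lower, beside 3070 of the 12648 tested genes in either direction. On recovered reads edgeR called 0 in either direction, and DESeq2 called 0 higher and 1 lower. On normal diet Ciita, which drives class II antigen presentation, rose by 1.67 ± 0.30 and the chemokine gene Cxcl10 by 1.42 ± 0.33. Gbp9 rose by 1.29 ± 0.21 and Cd274, which encodes PD-L1, by 1.27 ± 0.24. Of the 23, 17 were highest of the 8 pools in the 12-week normal diet CCl4 pool. Without that pool 2 rose, Ciita and Gbp9, and Ifi47 fell.

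A further list of interferon-stimulated genes outside the 34 had 51 tested genes, of which 29 rose and 1 fell with CCl4 on normal diet (15.3% and 10.6% of all tested genes) and 6 rose on Western diet (4.29%). On normal diet Samd9l (1.62 ± 0.19), Ly6a (1.58 ± 0.23), Slfn8 (1.47 ± 0.28) and Mnda (1.45 ± 0.21) changed most, and Ifitm2 was the 1 that fell. On Western diet Slfn2 (0.93 ± 0.18), Ifi27l2a (0.90 ± 0.17), Tor3a (0.88 ± 0.18) and Epsti1 (0.85 ± 0.18) led. The 12-week normal diet CCl4 pool was the highest of the 8 pools for 28 of the 51, and fewer rose without it. The lists outside the members were not refitted without either normal diet oil pool. Whether such falls were particular to the 12-week CCl4 pool was therefore not tested. All 7 macrophage markers rose with CCl4 on normal diet with and without that pool.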

How the data were processed

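Per the labels' protocols, RNA of flash-frozen liver and tumour was taken with an RNeasy kit, and 200 ng of it went into poly-A selected TruSeq libraries. STAR and mm10 are named, without versions, in the submitters' processing notes; which counter, annotation and scaling were used was not given in the sources used here. Deposited by the authors is a normalised signal for 24062 genes and 10 libraries. In each library 100% of values were whole reads, within 0.01 reads, times 1 constant, so whole reads were recovered, and totals ran from 23206229 to 30137802. Values of 0 allow up to 3 reads, which covers counting error only. All 10 columns matched a sample.

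Values were taken as log2(value + 1), so fold changes understate the change of low genes. Testing covered the 12648 genes that reached 1 in 2 or more of the 10 libraries. The 8 pools were fitted in R 4.3.3 with limma 3.58.1 (two-sided moderated test with a mean-variance trend), giving each pairing of diet with treatment its mean and adding duration as a term. The tumour comparison used all 10 libraries. Benjamini-Hochberg adjustment ran over all tested genes with a threshold of 0.05, and a gene past it is said to have risen or fallen. Nothing says whether pools were extracted or sequenced together. The fits were tested on simulated data.

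The 34 members and the other lists were chosen with earlier results of these data known. All 34 members are named. Of each other list up to 4 called genes with the largest change are named, together with genes given as values. Alternatives tried were DESeq2 1.42.0 and edgeR 4.0.16 on the recovered reads, a pseudocount of 0.1, a filter of 10 or none, quantile normalization, a fit with no duration term, a fit over all 10 libraries, and each library left out in turn. Counts of the other lists without the 12-week normal diet CCl4 pool were chosen after seeing the data. They were not set beside the share of all tested genes called in that fit. Promoter windows are RefSeq's for GRCm38.p6, and gene coordinates are GENCODE's for GRCm38. A result for 1 gene of the signalling list is not reported here.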

Additional observations from a re-analysis of the deposited data

How the results depend on the processing

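No member that was called turned its direction under an alternative. For CCl4 on normal diet 21 members were called, 9 with no filter and 8 with all 10 libraries in 1 fit, which takes in the tumours, and 10 to 26 with 1 library left out. For CCl4 on Western diet 4 were called, 2 with a pseudocount of 0.1, 0 with no filter, 1 with a filter of 10, 2 with quantile normalization, 1 with no duration term (no replicate block), 0 with all 10 libraries, 8 by DESeq2 and 0 to 8 with 1 library left out. For CCl4 averaged over diets 18 were called, 9 with no filter, 10 with all 10 libraries and 11 to 26 with 1 left out. For Western diet with oil 1 was called, 0 with no filter, with no duration term or with all 10 libraries, 6 by DESeq2 and 0 to 3 with 1 left out. For Western diet with CCl4 against normal diet with oil 13 were called, 7 with no filter, 8 with all 10 libraries and 8 to 18 with 1 left out. For the interaction 0 were called, 1 by DESeq2 and 0 to 1 with 1 left out, for duration 0 and 1 by DESeq2, and for tumours 0 and 0 to 4 with 1 left out. The cause of the shifts with the filter, pseudocount and tool was not tested. These counts were not set beside the share of all tested genes under the same alternative, other than for each tumour left out. No fit without the duration term exists for duration. Libraries share no replicate number in the labels. Each combination had 1 pool per duration, so duration itself served as the block, and no other pairing of pools was possible. Under each alternative that tested them, 7 of the 21 calls of CCl4 on normal diet held: Ifi27l2b, Ifi44, Ifit2, Oas1a, Oas3, Oasl2 and Trim30a. Low read counts limit Mx1, Oas2, Oas3 and Mx2, and 1 pool per condition limits every comparison.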
